A study of Mus musculus with 8 samples.

Results

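The 10 genes described here were grouped as immediate early genes. They are Fos, Fosb, Fosl1, Fosl2, Jun and Jund of the AP-1 family, Egr1 and Egr2 of the EGR family, and Ier2 and Ier3. They were chosen as a list of AP-1, EGR and IER symbols and make up 10 of 24921 gene symbols in the count tables. Poly(A) RNA of mouse V6.5 embryonic stem (ES) cells, a C57BL/6-129 hybrid line grown in 2i medium, was read in 8 libraries that form 4 groups of 2. In an OCT4-FKBP fusion line, cells received DMSO for 24 h or a dTAG compound (labelled dTag9) for 24 h, which directs the FKBP-tagged OCT4 protein to degradation. In the untagged parental line (WT), cells were kept with LIF, or LIF had been withdrawn for 5 days. The labels do not say whether the OCT4-FKBP line is 1 clone, whether the 2i inhibitors stayed in the medium without LIF, or whether replicates came from separate cultures. The p-values therefore rest on the spread between libraries, pooled largely over all genes, and that spread may be purely technical. Library totals ranged from 7221451 to 11447468 counted reads.

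Immediate early genes in the strict sense are transcribed within minutes of a growth factor, stress or handling stimulus, before any new protein is made. Their mRNAs are short-lived. Whether each of the 10 listed genes meets this definition was not tested here. ERK, a MAP kinase, drives many immediate early genes by phosphorylating ternary complex factors that sit with SRF on serum response elements. FOS and JUN proteins pair through leucine zippers to form AP-1, EGR proteins are zinc finger factors that bind GC-rich sites, and many of these proteins switch on the next layer of genes. Mouse ES cells receive an ERK signal from their own FGF4, and the 2i medium contains an inhibitor of MEK, the kinase just upstream of ERK.

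Promoter sequences of 7 of the 10 genes were in the RefSeq table of build GRCm38.p6, and those of Fosl1, Egr1 and Ier2 were not. The 3 windows below belong to the AP-1 genes called higher in both the OCT4 and the LIF comparison. They were picked by these calls, and any part of their letters in the levels given below was not tested. Windows of Fosb, Jund, Egr2 and Ier3 are not shown. Each runs 5′ to 3′ over the 250 bases before the gene's start. Capitals mark the letters TGANTCA (AP-1 site), TGANNTCA (AP-1 or CRE site), TGACGT (CRE core), GCGNGGGCG (EGR site) and TATAAA, and the CArG box bound by SRF, each searched on both strands. TGACGT can overlap TGANNTCA.
Fos, chr12:85473640-85473889, plus strand: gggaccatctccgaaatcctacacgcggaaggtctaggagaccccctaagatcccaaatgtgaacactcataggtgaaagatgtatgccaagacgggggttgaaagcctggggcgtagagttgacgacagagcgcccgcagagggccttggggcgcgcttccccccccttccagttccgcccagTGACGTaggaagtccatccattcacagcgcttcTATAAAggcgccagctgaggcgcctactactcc
Fosl2, chr5:32136222-32136471, plus strand: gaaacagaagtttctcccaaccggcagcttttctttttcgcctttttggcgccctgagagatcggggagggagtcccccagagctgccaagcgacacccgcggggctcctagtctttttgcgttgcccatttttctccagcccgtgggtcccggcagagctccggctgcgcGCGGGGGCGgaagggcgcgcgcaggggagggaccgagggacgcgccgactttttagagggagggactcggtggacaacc
Jun, chr4:95052223-95052472, minus strand: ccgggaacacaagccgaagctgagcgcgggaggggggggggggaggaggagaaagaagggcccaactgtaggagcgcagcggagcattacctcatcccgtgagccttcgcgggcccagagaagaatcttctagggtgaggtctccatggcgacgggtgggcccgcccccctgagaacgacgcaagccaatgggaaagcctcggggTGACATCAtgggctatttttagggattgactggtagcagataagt

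The Fos window held TGACGT from base -66 to -61, counted from the start, and TATAAA from -33 to -28. In the Fosl2 window, GCGGGGGCG lay from -79 to -71, and in the Jun window TGACATCA from -45 to -38. Of 32851 windows of this length in the table, 6.47% held TGACGT, 12.4% TATAAA, 4.7% GCGNGGGCG and 11.9% TGANNTCA. TGANTCA (6.75% of windows) and the CArG box (1.47%) were in none of the 3 windows shown. Bases farther from each start were not searched, so a site there would have been missed. Among the windows not shown, some of those of Egr2 held a CArG box. These matches describe letters in the window and no binding was measured here.

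Levels are given as CPM, which edgeR scales to the TMM-adjusted library size, and only within a gene, since transcript lengths differ. Fos, Fosl1, Fosl2, Jun, Egr1, Ier2 and Ier3 have 1 RefSeq accession each in the tables and passed the filter on low counts. Fosl1, with 39 reads in total, passed through the libraries without LIF. Jund has 2 accessions and 0 reads in all 8 libraries. A read in sequence shared by accessions is assigned to none of them in this kind of counting, so the 0 says nothing about Jund expression. Fosb and Egr2, also with 2 accessions each, had 11 and 10 reads in total, from sequence particular to 1 accession, and were not tested.

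The first comparison asked how the genes changed when OCT4 was degraded, dTAG against DMSO in the tagged line. Fos, Fosl2, Jun and Egr1 rose by 3.67-fold to 13.3-fold, and Ier2, Ier3 and Fosl1 were not called. In edgeR's quasi-likelihood test over 10311 genes, 40.5% of all tested genes were called at an adjusted p of 0.05, 20.1% as higher and 20.3% as lower, against 4 higher and 0 lower of the 7 tested members. Since dTAG was given to tagged cells only, an effect of the compound and one of OCT4 loss cannot be told apart.

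Fos, the founding FOS subunit of AP-1, was read at 2.39 and 2.46 CPM in DMSO and at 17.2 and 21.5 CPM with dTAG. The DMSO pair lay well below the dTAG pair, and the difference was 7.91-fold (log2 fold change 2.98, SE 0.22, edgeR adjusted p = 1.5e-11). Fosl2, which encodes the FOS relative FRA2, was read at 1.12 and 1.23 CPM in DMSO and at 10.9 and 9.21 CPM with dTAG. The pairs did not overlap, and Fosl2 was 8.39-fold higher with dTAG (log2 fold change 3.07, SE 0.27, edgeR adjusted p = 6.7e-10). Jun, the main JUN subunit of AP-1, went from 4.07 and 5.99 CPM to 19.3 and 19.2 CPM. Both dTAG libraries were above both DMSO libraries, by 3.67-fold in the fit (log2 fold change 1.88, SE 0.16, edgeR adjusted p = 2.6e-10).

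Egr1, a zinc finger factor induced by serum and by ERK, had the largest fold of the tested members. It was read at 1.82 and 3.52 CPM in DMSO and at 29.2 and 47.4 CPM with dTAG. The dTAG pair was apart from the DMSO pair but was itself spread. DESeq2 gave a log2 fold change of 3.82 (SE 0.56, DESeq2 adjusted p = 9.46e-11). In edgeR the fold was 13.3 (log2 fold change 3.74, SE 0.32, edgeR adjusted p = 4e-10). Without DMSO replicate 2 the log2 fold change of Egr1 was 4.38, and without dTAG replicate 2 it was 3.35.

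Ier2, a short-lived nuclear protein of the immediate early class, was read at 142 and 134 CPM in DMSO and at 146 and 139 CPM with dTAG. These pairs overlapped (log2 fold change 0.05, SE 0.07, edgeR adjusted p = 0.59). Ier3, a stress-induced regulator of cell survival, was read at 6.18 and 4.75 CPM in DMSO and at 4.05 and 3.33 CPM with dTAG. The dTAG pair was below the DMSO pair, but the change was not called (log2 fold change -0.53, SE 0.23, edgeR adjusted p = 0.073). Fosl1, which encodes FRA1, had 2 reads in each group, and the ratio of 1.02 has an exact 95% interval of 0.0738 to 14.1, so a change was not detectable at this depth.

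**Figure D1:**
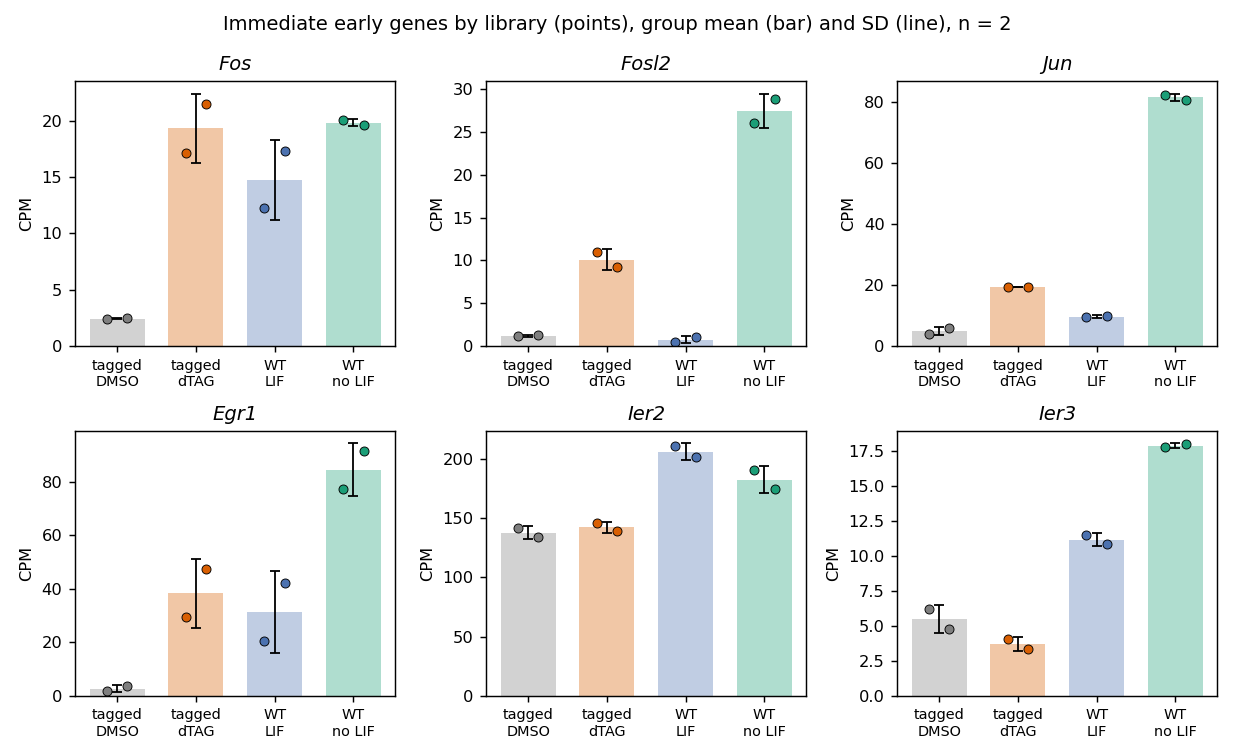
CPM (linear axis from 0) of Fos, Fosl2, Jun, Egr1, Ier2 and Ier3 in each library (points) of the 4 groups, with the group mean (bar) and SD (line), n = 2. Fos and Egr1 are low in tagged DMSO (2.43 and 2.67 CPM on average) and higher in the other 3 groups, while Fosl2 and Jun peak without LIF (27.5 and 81.3 CPM).

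Markers of cell types moved in the same comparison. The summed level of 7 ES cell markers was 2871 to 2874 CPM in DMSO and 1081 to 1096 CPM with dTAG, and 5 of 6 tested were lower. That of 7 trophoblast markers was 56.6 to 59.0 CPM and 244 to 265 CPM, with 4 of 5 tested higher and Cdx2 carrying most of the sum at 192 and 169 CPM with dTAG. The 7 primitive endoderm markers summed to 0.421 to 1.14 CPM and 17.1 to 20.9 CPM, nearly all of it Gata6 (20.6 and 16.9 CPM with dTAG). Sox7, the other one tested, had 0 reads with dTAG and was not called. The 8 fibroblast and smooth muscle markers summed to 25.3 to 25.8 CPM and 17.9 to 22.2 CPM, with 1 of 6 tested higher and 1 lower and Col3a1 at 0 reads with dTAG. Nanog, Elf5, Gata3, Gata4, Foxa2, Sox17, Dab2, Pdgfra and Pdgfrb have 2 to 5 accessions each and 0 to 6 reads over all libraries, so, as for Jund, a count at or near 0 says nothing about their expression. In bulk RNA, fewer cells of a type and less RNA per cell cannot be told apart, and the part of these cell types in the changes of the immediate early genes was not tested.

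The second comparison followed the genes in the parental line from growth with LIF to day 5 of its withdrawal. Fosl2 and Jun rose by 37.9-fold and 8.48-fold, Fosl1 by 7.67-fold, Egr1 by 2.75-fold, Ier3 by 1.6-fold and Fos by 1.37-fold, while Ier2 was 1.13-fold lower. That is 6 higher and 1 lower of the 7 tested members. Of all tested genes, 68.4% were called, 34% as higher and 34.4% as lower. Fosl1 is among the 6, though it passed the filter only through the libraries without LIF. With a filter of at least 5 CPM in 2 libraries, which left out Fosl1, 5 of 6 tested members were higher. That filter tested 7729 genes, of which 5809 were called, 2861 as higher. The calls of Fos and Ier2 were small and did not hold in every setting.

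Fosl2 was read at 0.441 and 1.06 CPM with LIF and at 26.0 and 28.9 CPM without it. The 2 groups stood far apart (log2 fold change 5.24, SE 0.25, edgeR adjusted p = 3.4e-16). The value was 5.94 without WT LIF replicate 2 and 4.66 without WT LIF replicate 1. Jun went from 9.36 and 9.88 CPM to 82.2 and 80.5 CPM. Libraries of each pair lay close together, and the log2 fold change was 3.08 (SE 0.11, edgeR adjusted p = 1.9e-18). Fosl1 had 4 reads with LIF and 31 without it, or 0.177 and 0.235 CPM against 1.45 and 1.91 CPM. Its reads stood in a ratio of 8.07 (exact interval 2.85 to 31.5, for counting error only), and the fit gave 2.94 on the log2 scale (SE 0.66, edgeR adjusted p = 0.00034). Since Fosl1 passed the filter only through the group where it is high, its call is not support for the list.

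Egr1 was read at 20.6 and 42.2 CPM with LIF and at 77.3 and 91.4 CPM without it. The LIF libraries differed from each other by 1.03 in log2 CPM, yet both lay below the libraries without LIF. DESeq2 gave Egr1 a log2 fold change of 1.47 (SE 0.52, DESeq2 adjusted p = 0.009), and the edgeR fit 1.46 (SE 0.19, edgeR adjusted p = 1.9e-07). Without WT LIF replicate 2 the log2 fold change of Egr1 was 2.05, and without WT LIF replicate 1 it was 0.98. Ier3 went from 11.5 and 10.8 CPM to 17.8 and 18 CPM. Both Ier3 libraries without LIF were above both with it (log2 fold change 0.68, SE 0.15, edgeR adjusted p = 0.00025).

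Fos was read at 12.3 and 17.3 CPM with LIF and at 20.1 and 19.6 CPM without it. The groups did not overlap, but the gap was small next to the spread with LIF (log2 fold change 0.45, SE 0.15, edgeR adjusted p = 0.01). The call was lost without WT LIF replicate 1 (edgeR log2 fold change 0.19, adjusted p = 0.305), without WT no LIF replicate 1 (edgeR adjusted p = 0.0715) and in DESeq2 (DESeq2 adjusted p = 0.056). Ier2 was read at 211 and 201 CPM with LIF and at 191 and 175 CPM without it. Its log2 fold change of -0.17 (SE 0.06, edgeR adjusted p = 0.015) lost its call with RLE scaling, in DESeq2, without WT LIF replicate 1 and without WT no LIF replicate 2.

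Sparsely read genes of the list were highest without LIF as well, at levels near the limit of the depth. Fosb, a FOS relative, had 6 and 3 reads without LIF and 1 and 0 with LIF, which gives a ratio of 9.37 (exact interval 1.3 to 411). Egr2, known for its role in hindbrain and Schwann cells, had 2 and 3 reads without LIF and 1 and 1 with LIF (ratio 2.6, interval 0.426 to 27.3). In the tagged line Fosb had 0 reads in DMSO and 1 with dTAG, and Egr2 had 0 and 3. A count of 0 in DMSO allows a level of up to 0.162 CPM. Only the interval of Fosb without LIF lay above 1, and both genes were counted from part of their sequence.

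**Figure D2:**
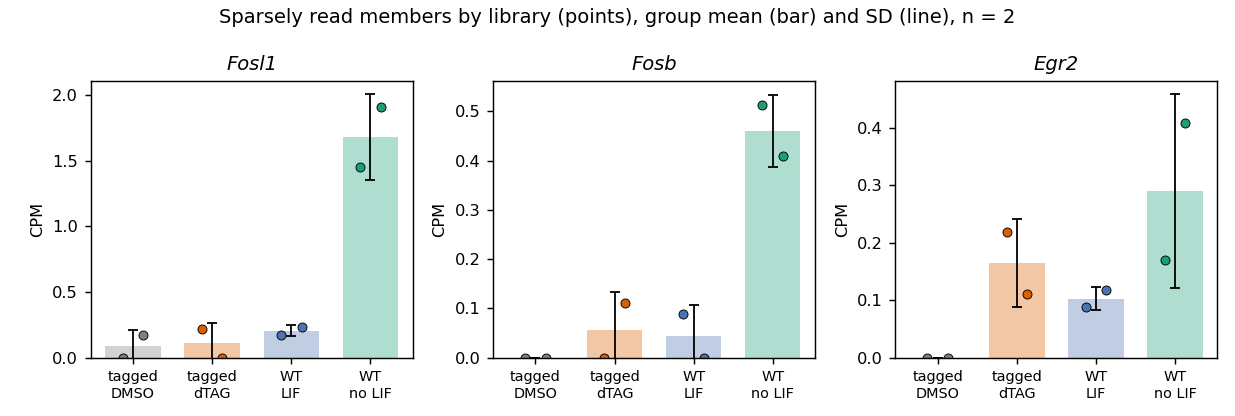
CPM (linear axis from 0) of Fosl1, Fosb and Egr2 in each library (points) of the 4 groups, with the group mean (bar) and SD (line), n = 2. No library exceeds 1.91 CPM, and the mean without LIF is 1.68 CPM for Fosl1, 0.461 CPM for Fosb and 0.29 CPM for Egr2.

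Cell type markers moved in this comparison too. With and without LIF, the 8 fibroblast and smooth muscle markers summed to 11.5 to 11.7 CPM and 870 to 912 CPM, with 5 of 6 tested higher. The smooth muscle genes Tagln (763 and 725 CPM) and Acta2 (128 and 125 CPM) made up nearly all of the sum without LIF, while Col1a1, Col1a2 and Col3a1 were at 1.2 to 7.09 CPM and Thy1 was not called. The 7 trophoblast markers summed to 19.9 to 21.4 CPM and 1391 to 1498 CPM, with 5 of 5 tested higher, and most of the sum came from the keratin genes Krt8 and Krt18. Cdx2 was at 2.73 and 1.5 CPM without LIF. The 7 ES cell markers summed to 3714 to 3734 CPM and 2105 to 2150 CPM, with 4 of 6 tested lower and 2 higher. Tdgf1 rose from 664 and 761 to 1143 and 1136 CPM and was the largest part of the sum without LIF. Utf1 also rose, while Pou5f1, Sox2, Zfp42 and Dppa5a fell. Of the primitive endoderm markers, which summed to 1.76 to 1.85 CPM and 5.12 to 5.73 CPM, both tested genes, Gata6 and Sox7, were higher without LIF. Whether cells of these types were present, and their part in the levels of Fosl2, Jun, Fosl1, Egr1 and Ier3, was not tested.

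The third comparison set tagged cells in DMSO against WT cells with LIF. It asked how far the starting levels of the 2 experiments differed. Egr1, Fos, Ier3, Jun and Ier2 were lower in tagged DMSO cells, by 10.6-fold, 5.95-fold, 2.1-fold, 1.83-fold and 1.5-fold, and no tested member was called higher. Among all tested genes, 40.6% were called, 22.1% as lower and 18.5% as higher, against 5 lower and 0 higher of 7 members. Effects of the tag, of the clone, of DMSO and of a culture batch cannot be told apart here. This comparison and the first share the DMSO libraries, so a low DMSO value enters both.

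The Egr1 values of 1.82 and 3.52 CPM in DMSO stood against 20.6 and 42.2 CPM in WT with LIF (log2 fold change -3.41, SE 0.33, edgeR adjusted p = 9.5e-09). DESeq2 gave a log2 fold change of -3.51 (SE 0.56, DESeq2 adjusted p = 6.18e-09). The lower library with LIF was still above the higher DMSO library. The log2 fold change of Egr1 was -4.03 without DMSO replicate 2 and -2.81 without WT LIF replicate 2. For Fos, 2.39 and 2.46 CPM stood against 12.3 and 17.3 CPM, with no overlap, a log2 fold change of -2.57 (SE 0.23, edgeR adjusted p = 1.6e-09). Jun differed by -0.87 on the log2 scale (SE 0.18, edgeR adjusted p = 0.00034), Ier3 by -1.07 (SE 0.18, edgeR adjusted p = 4.7e-05) and Ier2 by -0.59 (SE 0.06, edgeR adjusted p = 4.6e-08). In each of these 3 genes both DMSO libraries were below both WT libraries with LIF. Fosl2 was not called (log2 fold change 0.74, SE 0.49, edgeR adjusted p = 0.24), nor was Fosl1 (log2 fold change -0.83, SE 1.19, edgeR adjusted p = 0.62). Without WT LIF replicate 2 the Fosl2 value was 1.44, and without WT LIF replicate 1 it was 0.16. That of Fosl1 was -3.97 without DMSO replicate 2 and -0.16 without DMSO replicate 1.

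The same groups differed in cell type markers. In DMSO and in WT with LIF the ES cell markers summed to 2871 to 2874 CPM and 3714 to 3734 CPM, the trophoblast markers to 56.6 to 59.0 CPM and 19.9 to 21.4 CPM, and the fibroblast and smooth muscle markers to 25.3 to 25.8 CPM and 11.5 to 11.7 CPM. The primitive endoderm markers summed to 0.421 to 1.14 CPM and 1.76 to 1.85 CPM. Of the trophoblast markers, Cdx2 stood at 30.7 and 35.03 CPM in DMSO and at 0.53 and 1.06 CPM in WT with LIF, and of 5 tested 2 were higher in DMSO and 1 lower. Pou5f1, which encodes OCT4, stood at 77.5 and 77.8 CPM against 425 and 336 CPM, and of 6 tested ES cell markers 2 were higher and 3 lower. Pou5f1 has 2 accessions, so reads in sequence they share were not counted, and in the tagged line OCT4 is an FKBP fusion. Its values therefore do not measure total Pou5f1 RNA. Thy1 was higher among 6 tested fibroblast and smooth muscle markers, and neither of the tested primitive endoderm markers was called. The part of these differences in the levels of Egr1, Fos, Jun, Ier2 and Ier3 was not tested.

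Set in order, the group means of Egr1 ran from 2.67 ± 1.20 CPM in DMSO through 31.4 ± 15.3 in WT with LIF and 38.3 ± 12.8 with dTAG to 84.4 ± 9.91 without LIF (SD, n = 2). The dTAG and LIF libraries of Egr1 overlapped. Fos followed the same order, with 2.43 ± 0.055, 14.8 ± 3.55, 19.4 ± 3.07 and 19.9 ± 0.301 CPM, and its upper 3 groups lay within 12.3 to 21.5 CPM. Fosl2 was instead lowest in WT with LIF, at 0.75 ± 0.437 CPM, next to DMSO at 1.18 ± 0.0771 CPM. Its dTAG libraries (10.1 ± 1.23 CPM) and those without LIF (27.5 ± 2.03 CPM) were each apart from all others. Jun rose from DMSO (5.03 ± 1.35 CPM) through WT with LIF (9.62 ± 0.37) and dTAG (19.2 ± 0.0524) to no LIF (81.3 ± 1.24), and none of the 4 groups overlapped. Ier2 and Ier3 separated by line, with 133.9 to 145.6 CPM of Ier2 in the tagged libraries and 174.5 to 211.2 CPM in the parental ones. For Ier3 the ranges were 3.33 to 6.18 CPM and 10.8 to 18 CPM.

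**Figure D3:**
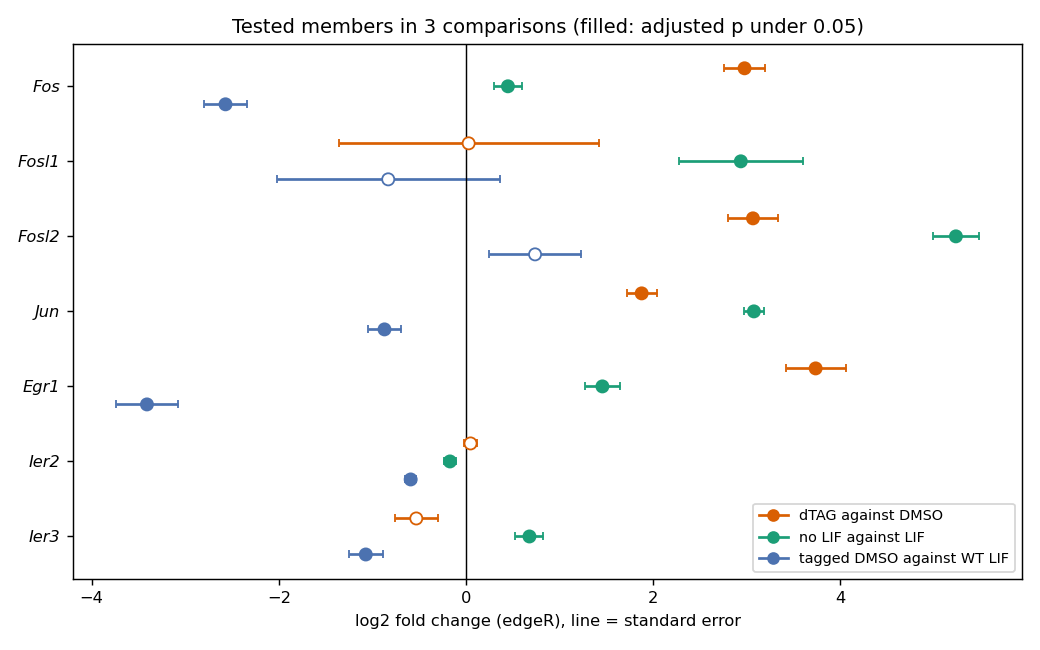
Log2 fold change (x axis) with its SE (line) for the 7 tested members in 3 comparisons, filled where the edgeR adjusted p was under 0.05. Fos and Egr1 have their larger increase with dTAG (2.98 and 3.74) and the largest decreases in tagged DMSO against WT LIF (-2.57 and -3.41), while Fosl2 and Jun have theirs without LIF (5.24 and 3.08).

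The difference between the 2 responses, dTAG minus LIF withdrawal, was tested as an interaction in the same fit. It was called for 6 of the 7 tested members, where 55% of all tested genes were called, 28.6% as higher and 26.4% as lower. Fos and Egr1 responded more to dTAG, by 2.53 (SE 0.28, edgeR adjusted p = 1.9e-08) and 2.28 (SE 0.41, edgeR adjusted p = 4e-05) on the log2 scale. Fosl2, Jun and Ier3 responded more upward to LIF withdrawal, with differences of -2.18 (SE 0.51, edgeR adjusted p = 0.00081), -1.21 (SE 0.22, edgeR adjusted p = 3.7e-05) and -1.20 (SE 0.28, edgeR adjusted p = 0.00061). In DESeq2 the Egr1 difference was 2.35 (SE 0.76, DESeq2 adjusted p = 0.0057). In edgeR the Egr1 difference was 2.92 without DMSO replicate 2 and 1.69 without WT LIF replicate 2. That of Fosl2 was -2.86 without WT LIF replicate 2 and -1.60 without WT LIF replicate 1. Ier2 gave 0.22 (SE 0.09, edgeR adjusted p = 0.038), a call that was lost in 9 of 16 alternatives. Fosl1 gave -2.91 (SE 1.76, edgeR adjusted p = 0.17). The starting levels enter this test: Fos and Egr1 began lower in DMSO than in WT with LIF, while with dTAG their libraries lay near or within the range of those with LIF.

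Replicate libraries differed more in Egr1 than in most genes. The 2 libraries of a group differed in Egr1 by 0.87 in DMSO, 0.69 with dTAG, 1.03 in WT with LIF and 0.24 without LIF, in log2 CPM. Over all tested genes the median size of this difference was 0.11 to 0.15, and its 95th percentile 0.78 to 0.87. Over tested genes of mean 5 CPM or more, the median was 0.07 to 0.11 and the 95th percentile 0.39 to 0.43. Egr1 in all groups but no LIF, Fos and Fosl2 in WT with LIF, and Jun in DMSO exceeded that percentile. In WT with LIF, 97.5% of tested genes had a smaller difference than Egr1. The library numbered 1 held less Egr1 than the library numbered 2 in each of the 4 groups, though the numbers did not pair the libraries over all genes. Fos differed by 0.49 in WT with LIF and by 0.32 with dTAG, in the same direction as Egr1, but only by 0.04 in DMSO and 0.03 without LIF.

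In edgeR's fit, the biological coefficient of variation of a gene is drawn toward the trend over all genes, so it is not the observed spread. The estimate for Egr1 was 13.7%, where the trend at its abundance was 5.06%. Observed Egr1 levels were 2.67 ± 1.20 CPM in DMSO, 38.3 ± 12.8 with dTAG, 31.4 ± 15.3 in WT with LIF and 84.4 ± 9.91 without LIF (SD, n = 2). For Fos the estimate and the trend were 7.71% and 5.93%. Jun (4.6% and 5.2%), Fosl2 (6.24% and 6.53%), Ier2 (4.03% and 4.12%), Ier3 (5.37% and 6.55%) and Fosl1 (11.3% and 12.6%) were at or below their trend. So the estimated variation stood above the trend for Egr1 and Fos and not for the other 5 tested members. Fosl2 still differed by 0.96 between the WT libraries with LIF, where it had 5 and 9 reads. Jun differed by 0.53 in DMSO, at 29 and 68 reads, and by at most 0.08 in the other groups. Ier2, with 1009 to 2392 reads per library, differed by 0.07 to 0.13.

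**Figure D4:**
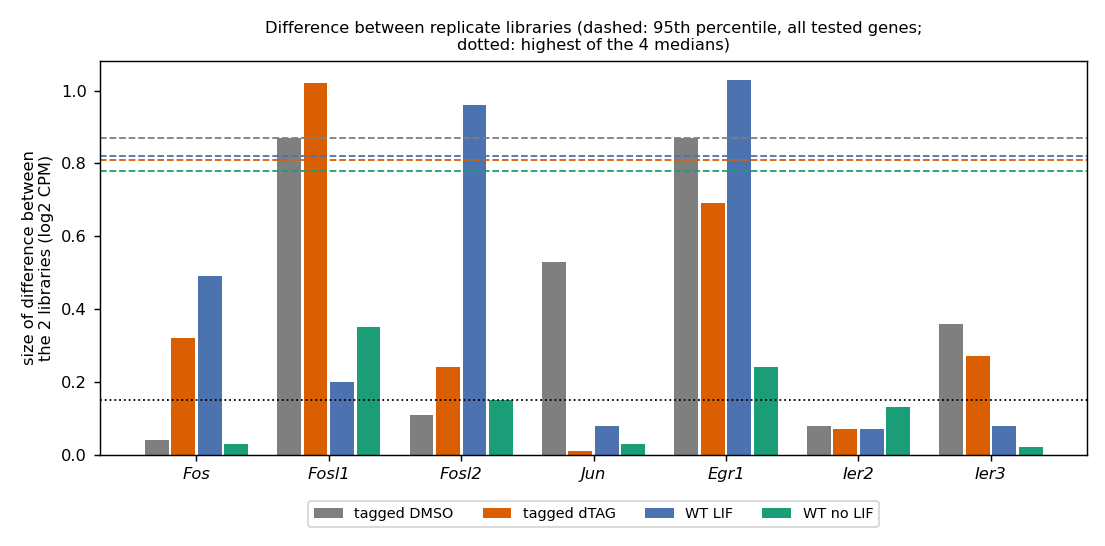
Size of the difference in log2 CPM (y axis) between the 2 libraries of each group for the 7 tested members, with the 95th percentile over all tested genes in each group (dashed, 0.78 to 0.87) and the highest of the 4 medians (dotted, 0.15). Egr1 reaches 1.03 in WT with LIF, Ier2 stays at or below 0.13, and the Fosl1 bars of 0.87 and 1.02 rest on 2 reads against 0. Over tested genes of mean 5 CPM or more, the 95th percentile is 0.39 to 0.43 (not drawn).

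The genes of most similar pattern were taken as the 2 of highest Pearson r in log2 CPM over the 8 libraries, among 7048 tested genes with a mean of at least 5 CPM. The libraries come as 4 pairs, and all genes share their depth and scaling, so these r describe group patterns and carry no p. For Fos the nearest genes were Egr1 (r = 0.968) and Sfxn5 (0.962), and for Egr1 they were Gskip (0.982) and Trib2 (0.976). Trib2 had 2.25 and 2.64 CPM in DMSO, 19.2 and 15.5 with dTAG, 11.8 and 13.2 with LIF, and 32.4 and 29.9 without LIF, the same order of groups as Egr1. Fosl2 lay nearest to Micu2 and Rhox9 (both 0.993), and Jun to Mlxip and Csnk1g3 (both 0.994). Ier2 was nearest to Mipol1 (0.99) and Acat1 (0.983), and Ier3 to Rilpl1 and Numbl (both 0.996). Among the members themselves r was 0.9 for Fosl2 with Jun and 0.85 for Jun with Egr1, but -0.10 for Fosl2 with Ier2.

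Other genes of the pathway were followed as lists, beside 40.5% of all tested genes called with dTAG, 68.4% without LIF and 40.6% in tagged DMSO against WT with LIF. Of 30 other immediate early genes, 24 were tested. With dTAG, 12 rose and 6 fell (median log2 fold change 0.25, all tested genes 0.00), and after LIF withdrawal 20 rose and 2 fell (median 0.65, all tested genes -0.02). In tagged DMSO against WT with LIF, 16 of the 24 were lower and 2 higher (median -0.38, all tested genes -0.03), the direction of Egr1, Fos, Jun, Ier2 and Ier3. Rhob, a small GTPase, rose from 51.2 ± 0.399 to 174 ± 0.232 CPM with dTAG, while Ccn2, a matricellular SRF and YAP target, fell from 54.1 ± 3.87 to 8.49 ± 1.48 CPM. Without LIF, Irs2, an adaptor of the insulin receptor, rose from 13.1 ± 0.151 to 191 ± 9.65 CPM, and Btg1, an antiproliferative factor, fell from 50.02 ± 7.45 to 21.8 ± 1.74 CPM (SD, n = 2). Myc had 0 reads over its 4 accessions.

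Of 16 AP-1 partners and other bZIP factors, 7 were tested, of which 2 rose and 1 fell with dTAG and 4 rose and 0 fell without LIF. Junb, a JUN relative, rose 1.5-fold with dTAG, from 16.4 ± 1.73 to 24.8 ± 3.51 CPM, while Atf3, a stress-induced bZIP factor, fell 7.46-fold. Both genes were also lower in tagged DMSO than in WT with LIF. Junb stood at 23.9 and 24.7 CPM in WT with LIF, within the range of its dTAG libraries (22.3 and 27.3 CPM). Of 4 EGR and NAB genes, Nab1 and Nab2 were the genes with enough reads to test. Nab1, a corepressor that binds EGR proteins, rose 1.7-fold with dTAG and 2.15-fold without LIF. Nab1 moved in the direction of Egr1 in both comparisons, and it was also among the genes lower in tagged DMSO than in WT with LIF. Nab2 was not called in any of these comparisons.

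Among 6 genes for SRF, its ternary complex factors and cofactors, 5 were tested. Srf itself rose 2.89-fold without LIF, from 72.7 ± 1.38 to 210.2 ± 10.3 CPM, and Elk3, a ternary complex factor, fell 1.76-fold with dTAG and 3.2-fold without LIF. Of 19 MAP kinase cascade genes, 9 were tested: 1 rose and 3 fell with dTAG, and 4 rose and 1 fell without LIF, shares of called genes near or below those over all tested genes. Araf, a RAF kinase, was 1.31-fold higher and Rps6ka2, an RSK kinase, 1.94-fold lower with dTAG, while Map2k1, which encodes MEK1, was 1.25-fold lower without LIF. Of 8 tested FGF-ERK feedback genes, 2 rose and 2 fell with dTAG, and 6 rose and 1 fell without LIF, against 20.1% higher and 20.3% lower with dTAG and 34% higher and 34.4% lower without LIF over all tested genes. Phlda1 rose 26.0-fold and Spry2, a feedback inhibitor of receptor signalling, fell 2.33-fold with dTAG. The ERK phosphatase gene Dusp6 rose 44.2-fold and Spry2 fell 1.17-fold without LIF.

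Genes known as AP-1 targets did not move as one group. Of 8 tested, 3 rose and 2 fell with dTAG, and 5 rose and 3 fell without LIF, where 40.5% and 68.4% of all tested genes were called. The metallothionein gene Mt2 rose 2.26-fold with dTAG and fell 3.52-fold without LIF, Spp1, which encodes osteopontin, fell 3.35-fold with dTAG, and Ccnd1, which encodes cyclin D1, rose 2.64-fold without LIF. Of 8 tested heat shock genes, 0 rose and 3 fell with dTAG. Hsp90aa1, a cytosolic chaperone, was 1.42-fold lower there. Without LIF 1 heat shock gene rose, Hsph1 by 1.56-fold, and 2 fell, Hspb1 by 1.92-fold. In tagged DMSO against WT with LIF, 4 of the 8 heat shock genes were higher and 0 lower, beside 40.6% of all tested genes called in either direction.

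**Figure D5:**
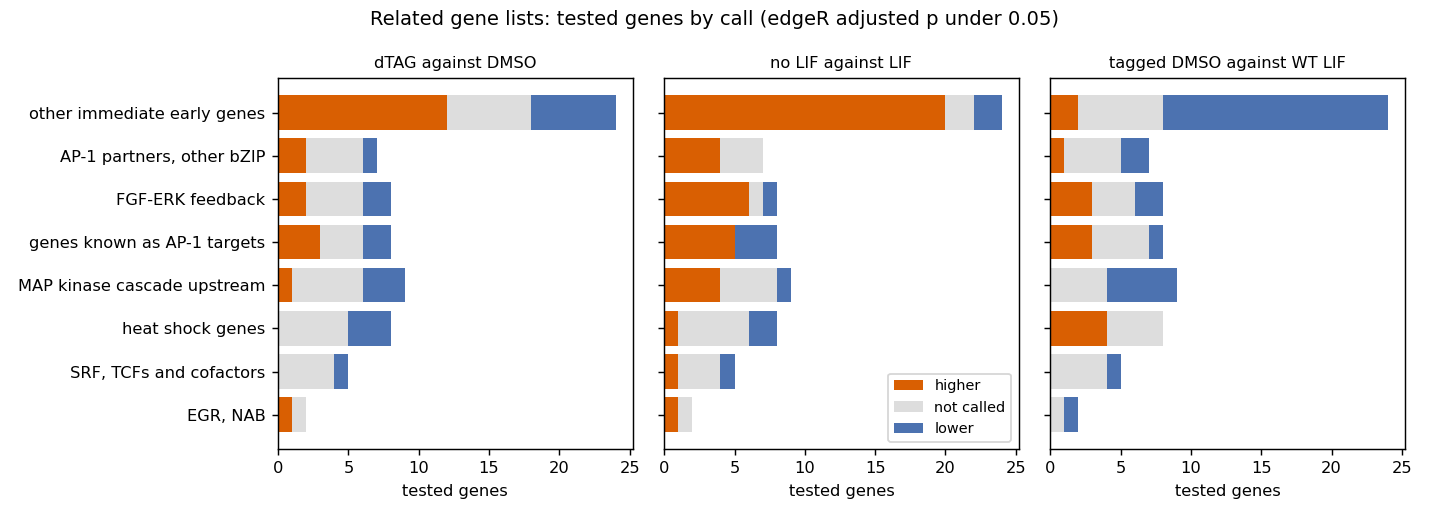
Number of tested genes (x axis) called higher, called lower or not called at an edgeR adjusted p of 0.05 in 8 related lists, for 3 comparisons. Other immediate early genes are mostly higher without LIF (20 of 24) and mostly lower in tagged DMSO against WT LIF (16 of 24).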

How the data were processed

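Each library has 1 table of raw counts, deposited by the authors, with a row per RefSeq transcript accession. HISAT2, HTSeq and build mm9 are named per the submitters' processing notes. Versions and the strand setting are not given in the sources used here. Reads were 40 bases from 1 end of stranded libraries, per the labels' protocols. HTSeq's summary lines were left out of totals and tests: reads without a feature were 10.4% to 14.9% of uniquely aligned reads, and ambiguous reads 42.1% to 43.0% of counted plus ambiguous reads. Of 41565 accessions, 41451 were paired with a symbol (41325 through the RefSeq table of GRCm38.p6, 126 through GENCODE), and counts were summed per symbol.

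One edgeR 4.0.16 fit (R 4.3.3; TMM, filterByExpr, glmQLFit, glmQLFTest) of 4 groups over 8 libraries had 4 residual degrees of freedom and tested 10311 genes. The quasi-likelihood fit added 21.0 prior degrees of freedom, so the p-values rest mostly on variance shared over all genes. P-values are Benjamini-Hochberg adjusted over all of them; an SE is the log2 fold change over the root of its F statistic. Log2 CPM values use a prior count of 2. An interval for sparse counts is exact (95%), a count of 0 allows 3 reads per group, and both cover counting error only. Alternatives used DESeq2 1.42.0, other scalings and filters, single accessions, subsets of libraries and a replicate block. The scripts were tested on simulated counts. Within each group the libraries differed beyond sampling noise (chi-square per degree of freedom 1.85 to 4.97).

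Members and lists were chosen with earlier results of these data known. Besides all members, the named genes were the list gene of smallest adjusted p each way in the first 2 comparisons and the 2 nearest genes by pattern; 2 genes taken by this rule are not reported here.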

Additional observations from a re-analysis of the deposited data

Results flagged for a closer look

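In 6 of the 7 tested members the response to dTAG in the tagged line differed from the response to LIF withdrawal in the parental line by edgeR's test of the difference itself. The log2 differences, dTAG response minus LIF withdrawal response, were 2.53 for Fos, 2.28 for Egr1, 0.22 for Ier2, -1.20 for Ier3, -1.21 for Jun and -2.18 for Fosl2. Of all tested genes, 55% were called in this test. The 2 responses were measured in different lines and over different times, 24 h and 5 days, and from starting levels that differed by -2.57 for Fos and -3.41 for Egr1 on the log2 scale.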

How the results depend on the processing

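The number of tested members called stayed at 4 with dTAG and at 5 in tagged DMSO against WT LIF in all 17 alternatives, at 5 to 7 after LIF withdrawal (7 in the fit as reported), and at 5 to 6 in 16 alternatives for the difference of responses (6 as reported). Calls over all tested genes ranged from 3159 to 4662, 2899 to 4263, 5809 to 7511 and 4699 to 5801 in these 4 comparisons. The 7 members called after LIF withdrawal include Fosl1, which passed the filter only through the libraries without LIF. The replicate numbers did not pair the libraries (same-numbered deviations correlated at -0.0039 to 0.061 over 7049 genes), and with a replicate block 4, 5, 7 and 6 members were called. Of the log2 fold changes of members, 16 values lost their call, all of Fos or Ier2, and none gained one. Fosl1, with 0 to 2 reads in each library of the tagged line, changed sign: its log2 fold change with dTAG was -0.62 without DMSO replicate 1 and -3.21 without dTAG replicate 1, and its difference of responses was 0.25 without DMSO replicate 2. Over the fits that left out 1 library these 2 values of Fosl1 ran from -3.21 to 3.2 and from -6.16 to 0.25. Where a library was left out, the lone library of its group was assumed to vary like the other groups. Depth limits Fosl1, Fosb and Egr2, and the counting limits Jund.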
